A study of Rattus norvegicus with 48 samples.

Results

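MicroRNAs (miRNAs) of the glomerulus, the tuft of capillaries where blood is filtered, were compared with those of the thick ascending limb, the salt-absorbing tubule of Henle's loop, in rat kidney. The comparison used 5 of the 11 libraries kept by the submitters, which are 20 of 44 sequencing runs, and all 188 mature miRNAs of the deposited table. The glomerulus had 2 libraries, from rats 1 and 3, and the thick ascending limb had 3, from rats 1, 2 and 3. The rats were male Sprague-Dawley animals, naive and 6 months old, and both segments were cut by laser from frozen kidney sections 8 µm thick. Thick ascending limbs were found by antibody fluorescence against Tamm-Horsfall protein and glomeruli by a histochemical stain, so staining and segment cannot be told apart. Another glomerulus library labelled rat 3 had all 4 runs marked as removed and was not used here, and no glomerulus library carries the label rat 2. Each library is a mixture: a captured glomerulus holds podocytes, mesangial cells and endothelium, and fewer cells of a type and less RNA per cell cannot be told apart.

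A miRNA is a strand of about the length of the sequences printed here that is cut from a hairpin and guides silencing proteins to messenger RNAs. Its targets are chosen largely by the seed, bases 2 to 8 counted from the 5′ end, and miRNAs with 1 seed form a family. The miR-200 family is known for keeping cells epithelial by silencing the repressors ZEB1 and ZEB2, miR-126 is made in endothelium from an intron of Egfl7, and miR-143 and miR-145 mark smooth muscle and related contractile cells such as the mesangium. Neighbouring miRNAs are often cut from 1 transcript, so members of a cluster tend to be made together.

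The sequences that carry the comparison are from RefSeq on the GRCr8 build, which held 172 of the 188 mature miRNAs and 18 of the 21 that differed. Capitals mark the seed. The first lines show the miR-183/miR-96/miR-182 locus and then other miRNAs that were lower in the glomerulus. Of the locus, miR-182 and miR-3553 were called lower, miR-96-5p was not called, and miR-183-5p, which has no column, is shown because miR-3553 is read from the opposite strand and is its complement.
miR-182: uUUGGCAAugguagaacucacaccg
miR-96-5p: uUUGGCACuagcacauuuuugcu
miR-183-5p: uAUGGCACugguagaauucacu
miR-3553: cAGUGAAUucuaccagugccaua
miR-375-3p: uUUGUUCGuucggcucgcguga
miR-141-3p: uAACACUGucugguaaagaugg
miR-203a-3p: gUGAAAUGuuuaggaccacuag
miR-31a-5p: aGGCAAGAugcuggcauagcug
miR-672-5p: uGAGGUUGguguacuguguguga
The next lines show 5 of the 6 miRNAs that were higher in the glomerulus.
miR-351-5p: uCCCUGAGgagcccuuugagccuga
miR-450a-5p: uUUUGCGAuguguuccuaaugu
miR-149-5p: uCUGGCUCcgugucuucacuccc
miR-126a-5p: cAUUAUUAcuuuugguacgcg
miR-126a-3p: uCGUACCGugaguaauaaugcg

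The 188 miRNAs rest on an estimated 807909 and 147996 reads in the glomerulus of rats 1 and 3, and on 218882, 321577 and 1296995 in the thick ascending limb of rats 1, 2 and 3. The summed value was 165055 and 77457 in the glomerulus, and lay between 115865 and 171675 in the thick ascending limb. In the glomerulus 30 miRNAs of rat 1 and 51 of rat 3 were at 0 in all runs, against 7 to 19 in the thick ascending limb. Between rats, the SD of log2 values of the 65 miRNAs whose mean reached 100 had a median of 0.811 in the glomerulus and 0.343 in the thick ascending limb. The values are TMM-normalized (trimmed mean of M-values, which scales libraries so that most miRNAs match), and each value below is the mean of the 4 runs of a library.

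Of 188 miRNAs, 21 (11.2%) differed between the segments at an adjusted p below 0.05 in limma's moderated test: 6 (3.19%) were higher in the glomerulus and 15 (7.98%) lower. miR-182, miR-375-3p, miR-203a-3p, miR-31a-5p and 4 members of the miR-200 family were lower, and miR-351-5p, miR-450a-5p, miR-149-5p, miR-23b-3p and both arms of miR-126a were higher. Without the adjustment 45 miRNAs passed p = 0.05, 17 higher and 28 lower. The median log2 difference over all 188, glomerulus minus thick ascending limb, was −0.36, with 76 miRNAs above 0 and 112 below. All 21 had the same sign within rat 1 and within rat 3. These are the libraries that gave the calls, so the agreement is no separate support. Its share over all 188 was not taken. The libraries of the segments did not overlap for 14 of the 15 lower and all 6 higher miRNAs, where 18.1% and 13.3% of the 188 are separated in these directions. The exception was miR-199a-3p.

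**Figure D1:**
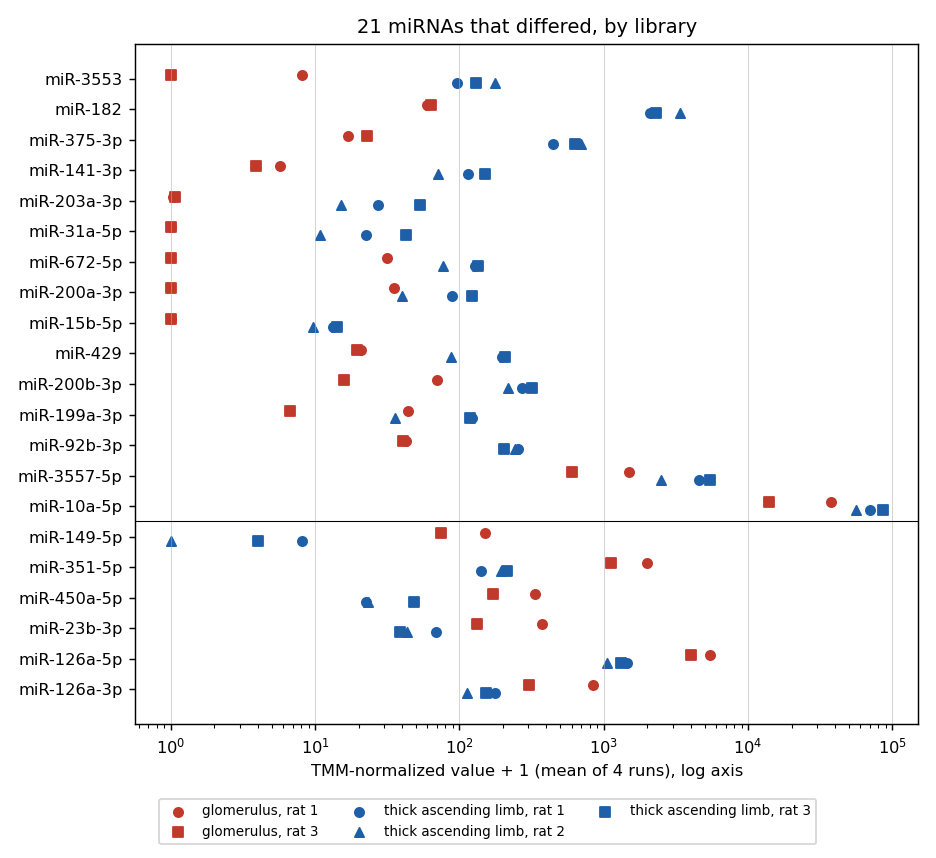
Each row is 1 of the 21 miRNAs that differed, the horizontal log axis gives its TMM-normalized value plus 1, and each point is 1 library (red glomerulus, blue thick ascending limb, shape for the rat). The 15 miRNAs above the line are lower in the glomerulus, the 6 below it are higher, and red and blue points overlap only for miR-199a-3p.

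The number called depended on how the libraries were scaled. Rescaled by the median of ratios, 45 miRNAs differed, 21 higher and 24 lower. Rescaled to the same total, there were 43, with 22 higher and 21 lower, and under quantile normalization 34, with 17 in each direction. The median log2 difference over all miRNAs moved from −0.36 to −0.24, −0.13 and −0.01 in these scalings. All 21 remained called after the first pair and 20 under quantile normalization, which leaves miR-10a-5p, the most abundant miRNA of these 5 libraries, at a difference of 0 by construction. Each glomerulus library also moved the counts: 44 miRNAs differed (4 higher, 40 lower) without rat 1 and 36 (24 higher, 12 lower) without rat 3, with 19 and 17 of the 21 still called. In those fits the remaining glomerulus library is assumed to vary like the other segments, and the main fit also shares 1 variance across segments. Between rats the glomerulus varied more, with a median SD of 0.811 against 0.343 in the thick ascending limb. SEs and p-values from the shared variance may therefore be too small for the glomerulus. With a separate weight for each segment 11 miRNAs were called, 1 of them higher.

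**Figure D2:**
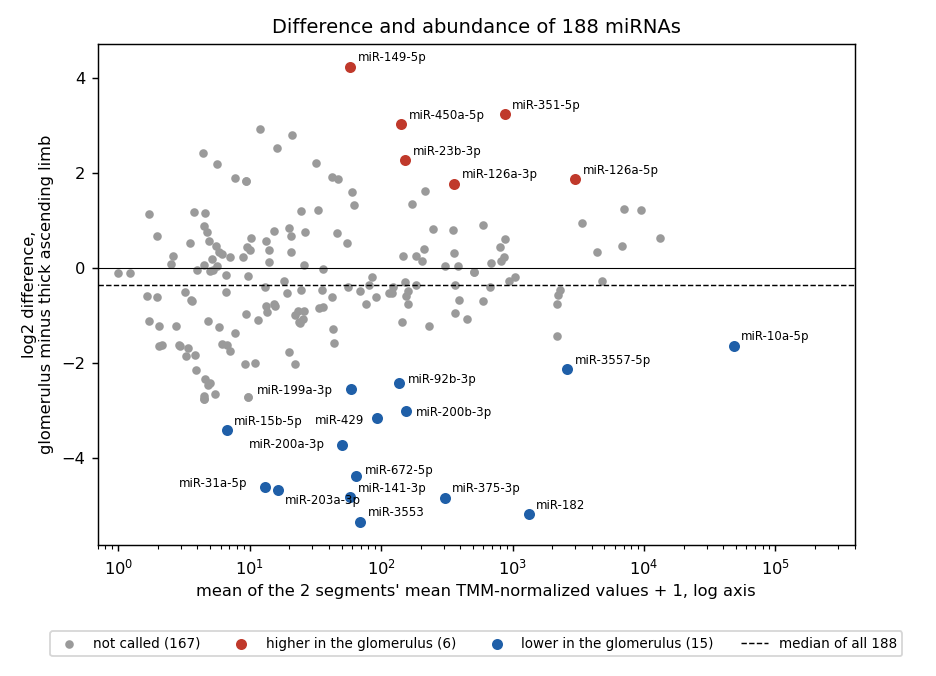
Each point is 1 of 188 miRNAs; the horizontal log axis is the mean of the segment means plus 1 and the vertical axis the log2 difference, glomerulus minus thick ascending limb. Red marks the 6 called higher, blue the 15 called lower, grey the 167 others, and the dashed line the median of −0.36.

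miR-182, which is made with miR-183 and miR-96 and is known from sensory and other epithelia, was at 58.9 and 62.6 in the glomerulus of rats 1 and 3 and at 2101, 3373 and 2299 in the thick ascending limb of rats 1, 2 and 3. The glomerulus libraries lay close together and every thick ascending limb library was far above them. The log2 difference was −5.18 (SE 0.52, 95% interval −6.21 to −4.16, adjusted p = 8.51e-20), and it was −5.14 within rat 1 and −5.20 within rat 3. miR-182 made up 1.91% ± 0.873 of the summed value of the thick ascending limb (SD, n = 3), where it was in place 10 by abundance. Because miR-10a-5p takes a large and unequal part of each library, the share was also taken outside it: 3.74% ± 1.67 in the thick ascending limb (SD, n = 3), against 0.0725% ± 0.0371 for the glomerulus (n = 2).

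The other miRNAs of that locus were low or absent in the glomerulus. miR-96-5p was at 0 in both glomerulus libraries and at 2.21, 6.58 and 5.6 in the thick ascending limb. It was not called (log2 difference −1.67, SE 1.21, adjusted p = 0.445), and with a floor of 3 reads over the group, a value of 0.639, its mean was at least 7.5-fold higher in the thick ascending limb. Floors cover counting error only. The seeds of miR-182 and miR-96-5p differ at 1 base, A8C in the order miR-182 to miR-96-5p, and the 2 strands match at 12 of the first 23 positions. miR-3553 was at 7.15 and 0 in the glomerulus and at 94.7, 175 and 130 in the thick ascending limb, a log2 difference of −5.34 (SE 0.69, adjusted p = 1.37e-12). The difference was −3.62 within rat 1 and −7.03 within rat 3, and −3.35 without the rat 3 glomerulus and −7.32 without that of rat 1. At the value of rat 1, the glomerulus library of rat 3 would have held 13.4 reads of it.

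miR-3553 overlaps miR-183-5p by 22 bases on the opposite strand, and miR-183-5p is not among the 188. How strand was used in the authors' counting is not given in the sources used here, but the table holds 6 pairs of miRNAs that overlap on opposite strands, and in 4 of them both columns carry the same value in all 44 runs. These are let-7a-5p with miR-3596a, miR-181a-1-3p with miR-3570, miR-210-3p with miR-3574 and miR-378a-5p with miR-3557-3p. In these pairs the reads of the strands cannot be told apart. Of the 21 called miRNAs, 5 lie over a mature miRNA of the opposite strand that has no column: miR-3553, miR-3557-5p (over miR-378a-3p, by 21 bases), miR-31a-5p (over miR-31b, by 19), miR-203a-3p (over miR-203b-5p, by 20) and miR-126a-5p (over miR-126b, by 17). Whether their values hold reads of the other strand was not tested.

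The miR-200 family was lower in the glomerulus. It had 5 of 9 listed members in the table, of which 4 fell, where 7.98% of all miRNAs did, and none rose. The median log2 difference was −3.16 against −0.36 over all miRNAs. miR-141-3p was at 4.71 and 2.89 in the glomerulus and at 113, 69.5 and 150 in the thick ascending limb, a log2 difference of −4.83 (SE 0.76, adjusted p = 1.82e-08). Its libraries were far apart. miR-429 was at 19.8 and 18.4 against 197, 86.5 and 207 (log2 difference −3.16, SE 0.66, adjusted p = 3.50e-05). miR-200b-3p was at 69.3 and 14.7 against 271, 217 and 315 (log2 difference −3.0, SE 0.60, adjusted p = 1.72e-05). The glomerulus libraries of miR-200b-3p differed from each other, yet both were below every thick ascending limb library.

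miR-200a-3p, which is cut from the same transcript as miR-200b-3p and miR-429, was at 34.1 and 0 in the glomerulus and at 88.1, 38.8 and 120 in the thick ascending limb. The glomerulus of rat 1 came close to the thick ascending limb of rat 2. Its log2 difference was −3.71 (SE 0.74, adjusted p = 1.61e-05), but −1.31 within rat 1 and −6.92 within rat 3. Without the glomerulus library of rat 3 it was −1.12 and no longer called (adjusted p = 0.239). At the rat 1 value that library would have held 64.1 reads of miR-200a-3p. The opposite arm miR-200b-5p, at 5.40 and 0 against 15.1, 4.96 and 8.07, was not called (log2 difference −1.74, adjusted p = 0.427). The 4 called members add up to between 36.1 and 128 in the glomerulus libraries and between 412 and 792 in those of the thick ascending limb, and none was at 0 in both glomerulus libraries.

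miR-375-3p and miR-203a-3p, known from endocrine and secretory cells and from stratified epithelium, also fell. miR-375-3p was at 15.8 and 21.9 in the glomerulus and at 444, 696 and 627 in the thick ascending limb. The log2 difference was −4.83 (SE 0.59, adjusted p = 7.54e-14), and it was −4.77 within rat 1 and −4.80 within rat 3. miR-203a-3p was at 0.0323 and 0.0735, under the floor, against 26.1, 14.1 and 52.0 (adjusted p = 0.000225), so that its mean was at least 48.0-fold higher in the thick ascending limb. miR-203b-3p, at 0 in both glomerulus libraries and at 0.254, 12.1 and 14.5, was not called (adjusted p = 0.150). For these 3 the median log2 difference was −4.66, and −4.83 with the 2 members at the floor put at their bound.

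miR-31a-5p and miR-15b-5p were at 0 in every glomerulus run. miR-31a-5p, at 21.4, 9.82 and 41.4 in the thick ascending limb, was at least 37.9-fold higher there (adjusted p = 4.48e-05). miR-15b-5p, at 12.4, 8.69 and 13.2, was at least 17.9-fold higher, with an adjusted p of 0.0476. Fitted differences of such miRNAs depend on the pseudocount and are no bound. The miR-15b-5p call was lost in 14 of 28 alternative fits, and 7 of these left out 1 library: the rat 3 glomerulus, the rat 1 or rat 3 thick ascending limb, any collecting duct or the rat 3 proximal tubule (adjusted p between 0.0521 and 0.313).

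miR-672-5p was at 30.7 and 0 in the glomerulus against 127, 75.3 and 134 in the thick ascending limb (log2 difference −4.36, SE 0.70, adjusted p = 2.60e-08). The difference was −2.0 within rat 1 and −7.08 within rat 3, and −2.08 without the rat 3 glomerulus, where it stayed called (adjusted p = 0.00787). miR-92b-3p was at 41.8 and 39.7 against 252, 243 and 202, a log2 difference of −2.41 (SE 0.63, adjusted p = 0.00181). In the deposited scaling its libraries lay close together within each segment. As a share of the summed value it was at 0.0383% ± 0.0183 in the glomerulus (SD, n = 2). It was 1 of 3 miRNAs, with miR-182 and miR-375-3p, still called with an own variance per miRNA from the 5 libraries alone. The own-variance fit was run in the deposited scaling only. Without the thick ascending limb of rat 1 the adjusted p of miR-92b-3p was 0.100. miR-199a-3p, which is known from mesenchymal cells, was at 43.3 and 5.68 against 122, 34.8 and 117 (log2 difference −2.54, SE 0.73, adjusted p = 0.00576). Its segments overlapped, and without the rat 3 glomerulus the difference was −1.25 (adjusted p = 0.212). Without the rat 1 or rat 3 thick ascending limb it was not called either, with an adjusted p of at least 0.0558. With the rat as a random effect in place of the block the difference was −2.15 (adjusted p = 0.0804). The other arm, miR-199a-5p, was at 29.0 and 7.31 against 32.9, 20.0 and 26.9. Its segments overlapped and it was not called (log2 difference −0.89, SE 0.97, adjusted p = 0.676).

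2 abundant miRNAs were lower in the glomerulus. miR-3557-5p was at 1484 and 600 against 4549, 2506 and 5433 (log2 difference −2.12, SE 0.52, adjusted p = 0.000833), and without the thick ascending limb of rat 3 it was no longer called (adjusted p = 0.0587). Its partner arm miR-3557-3p, at 0 in both glomerulus libraries, had 3.44, 5.07 and 12.7 in the thick ascending limb (adjusted p = 0.140). miR-10a-5p, from a Hox gene cluster, was at 37565 and 14049 against 70201, 56313 and 85747 (log2 difference −1.63, SE 0.58, adjusted p = 0.0476). The groups did not overlap, but the call was lost in 19 of 29 alternative fits and without the rat 3 glomerulus the difference was −0.80 (adjusted p = 0.304). Leaving out the rat 1 or rat 3 thick ascending limb, the rat 1 or rat 3 collecting duct or any proximal tubule library also ended it, with adjusted p from 0.0721 to 0.349. The other arm, miR-10a-3p, was not called (log2 difference −0.75, adjusted p = 0.704), and the remaining 5 members of the miR-10/miR-196 list were not called either, at −1.85 to 0.53.

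On the higher side the largest differences were those of miR-149-5p and of a cluster on the X chromosome. miR-351-5p was at 1999 and 1117 in the glomerulus and at 139, 194 and 214 in the thick ascending limb, a log2 difference of 3.24 (SE 0.57, adjusted p = 7.24e-07). It had the smallest adjusted p of the 6, and the difference was 3.86 within rat 1 and 2.38 within rat 3. miR-450a-5p, encoded beside it, was at 334 and 170 against 21.4, 22.3 and 47.5 (log2 difference 3.02, SE 0.76, adjusted p = 0.00114). miR-322-5p of the same cluster was low, at 25.6 and 5.66 against 7.88, 4.33 and 14.6, and was not called (log2 difference 0.56, adjusted p = 0.817). Without the rat 1 glomerulus its difference was −1.0. So of 3 measured members of 10 listed, 2 rose, where 3.19% of all miRNAs did, and the median was 3.02 against −0.36 over all.

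miR-351-5p has the seed of miR-125a-5p and miR-125b-5p, which were not called. They are printed to set beside miR-351-5p, with which each has the seed and 10 positions in all in common, of 24 compared for miR-125a-5p and of 22 for miR-125b-5p.
miR-125a-5p: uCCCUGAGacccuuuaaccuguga
miR-125b-5p: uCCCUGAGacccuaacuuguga
miR-125a-5p was at 3255 and 981 in the glomerulus and at 2664, 2019 and 2706 in the thick ascending limb, with the segments overlapping (log2 difference −0.47, SE 0.52, adjusted p = 0.676). miR-125b-5p was at 186 and 70.3 against 154, 179 and 203 (log2 difference −0.59, SE 0.61, adjusted p = 0.673). Both signs rest on 1 library: without the rat 3 glomerulus the differences were 0.56 and 0.16, and without that of rat 1 miR-125a-5p was called lower (−1.49, adjusted p = 0.00553).

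miR-149-5p was at 149 and 73.7 in the glomerulus and at 7.06, 0 and 3.05 in the thick ascending limb (log2 difference 4.24, SE 1.11, adjusted p = 0.00188). The groups were far apart, and the difference was 4.23 within rat 1 and 4.22 within rat 3. With a separate weight for each segment, which gave glomerulus libraries a weight of 0.277 and thick ascending limb libraries 1.28, it was not called.

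The endothelial miRNA miR-126a was higher in the glomerulus in both arms. miR-126a-5p was at 5449 and 3997 against 1458, 1046 and 1308 (log2 difference 1.88, SE 0.52, adjusted p = 0.00408). miR-126a-3p was at 840 and 302 against 174, 112 and 153 (log2 difference 1.78, SE 0.60, adjusted p = 0.0309), and without the rat 1 glomerulus it was 0.98 and not called (adjusted p = 0.163). The call of that arm was also lost without any 1 of the thick ascending limb or collecting duct libraries and without the proximal tubule of rat 1 or 2, with adjusted p from 0.0508. The arms lay at similar differences, with no overlap between segments. The third measured member of the endothelial list, miR-221-3p, which other cell types also make, had a difference of the opposite sign, at 26.1 and 0.483 against 18.4, 31.0 and 37.8, and was not called (log2 difference −2.02, adjusted p = 0.185). That sign rests on the rat 3 glomerulus: the difference was 0.48 within rat 1 and 1.04 without rat 3, and −5.08 without rat 1, where it was called (adjusted p = 7.90e-05).

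The clusters of miR-23, miR-27 and miR-24, known from vessels and many other tissues, had 7 of 11 listed members in the table. 1 rose, where 3.19% of all miRNAs did, and 6 did not pass. All 7 differences were above 0 in every scaling. Of all 188 miRNAs, 76 were above 0 in the main fit and 77 to 92 in the other scalings. The lowest of the 7 was 0.07 in the main fit, and without the rat 1 glomerulus miR-27b-5p was at 0.05. The median was 1.24 against −0.36 over all miRNAs. miR-23b-3p was at 375 and 132 in the glomerulus against 68.1, 42.5 and 38.0 (log2 difference 2.28, SE 0.74, adjusted p = 0.0224). Without the rat 1 glomerulus it was 1.43 and not called (adjusted p = 0.163), and the call was lost too without any 1 thick ascending limb library or the rat 2 proximal tubule, with adjusted p from 0.0521. miR-27b-3p, the fourth most abundant glomerular miRNA, was at 13077 and 7026 against 4452, 2816 and 4782. Its groups did not overlap, but with a log2 difference of 1.24 (SE 0.53) its adjusted p was 0.132. miR-23a-3p, which differs from miR-23b-3p at 1 position, A19U, was at 302 and 188 against 114, 83.6 and 97.5 (log2 difference 1.35, adjusted p = 0.185). After rescaling to the same total the difference of miR-27b-3p was 1.57 with an SE of 0.211 (adjusted p = 4.11e-05), that of miR-23a-3p 1.68 (adjusted p = 0.00135) and that of miR-24-3p 1.66 (adjusted p = 0.0149). Without the rat 3 glomerulus miR-27b-3p was at 1.69 and miR-23a-3p at 1.78. Without that of rat 1 miR-27b-3p was at 0.80 and miR-23a-3p at 0.92.

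**Figure D3:**
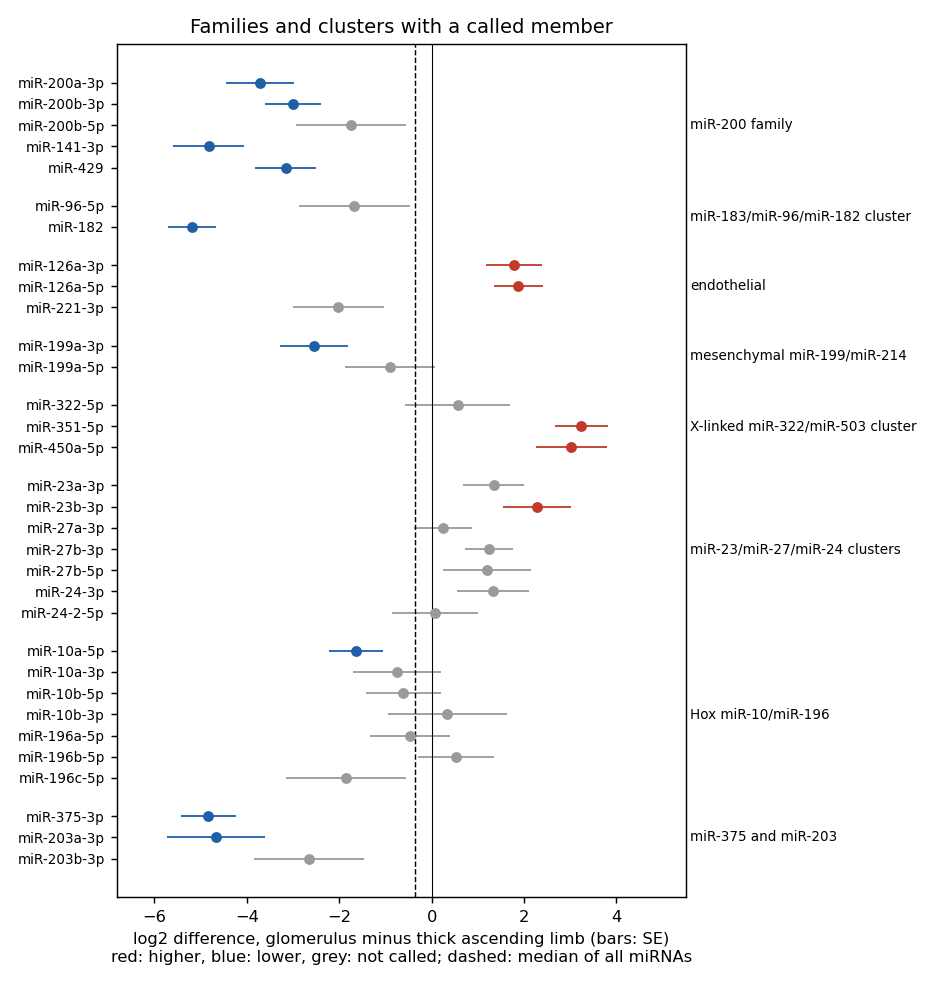
Points are log2 differences, glomerulus minus thick ascending limb, with SE, for the measured members of the 8 lists that hold a called miRNA; red is called higher, blue called lower and grey not called. The miR-200 members lie at −1.74 or below, the miR-23/27/24 members all lie above 0, and the dashed line is the median of −0.36.

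2 more seed families held a called miRNA beside members that were not called. They are printed because the bases outside the seed are what tells the members apart.
miR-15b-5p: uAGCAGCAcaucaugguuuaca
miR-16-5p: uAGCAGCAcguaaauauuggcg
miR-195-5p: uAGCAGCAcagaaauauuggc
miR-92b-3p: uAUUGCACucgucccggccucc
miR-92a-3p: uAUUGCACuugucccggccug
miR-25-3p: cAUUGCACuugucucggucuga
miR-16-5p, from the same locus as miR-15b-5p and the same as it at 14 of 22 positions, was at 1331 and 493 in the glomerulus and at 932, 531 and 721 in the thick ascending limb (log2 difference 0.15, SE 0.54, adjusted p = 0.901). miR-195-5p was at 28.6 and 20.5 against 2.27, 1.55 and 12.7, above in both libraries (log2 difference 2.53, SE 1.19, adjusted p = 0.173). miR-497-5p and miR-322-5p, with the same seed, had differences of 0.67 and 0.56 and were not called. The sign turned without the rat 1 glomerulus for miR-16-5p (−0.58), miR-497-5p (−1.49) and miR-322-5p (−1.0). Whether miR-15b-5p differs from these members was not tested.

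miR-92a-3p, which matches miR-92b-3p at 19 of 21 positions with the changes C10U and C21G, was at 40.9 and 12.3 against 48.3, 63.6 and 61.1 (log2 difference −1.29, SE 0.77, adjusted p = 0.326). Its libraries did not overlap, and it was called lower without the rat 1 glomerulus (−2.43, adjusted p = 0.0104), but was at −0.14 without that of rat 3. miR-25-3p was at 311 and 175 against 208, 135 and 200, so its segments overlapped (log2 difference 0.41, adjusted p = 0.769). The members of this family are thus listed from −2.41 to 0.41, and miR-92b-3p was the called one. Whether its difference is unlike that of miR-92a-3p was not tested.

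The most abundant miRNAs were largely shared. The 10 most abundant of each segment had 7 in common, and they held 78.8% ± 3.19 of the summed value in the glomerulus (SD, n = 2) and 80.0% ± 0.491 in the thick ascending limb (n = 3). Of the 13 miRNAs in either group of 10, 4 were called, where 11.2% of all 188 were: miR-10a-5p, miR-182, miR-3557-5p and miR-126a-5p. miR-126a-5p ranked seventh in the glomerulus, at 4.23% ± 1.31. miR-22-3p was at 21757 and 11218 in the glomerulus and at 10450, 6786 and 12862 in the thick ascending limb, with overlap (log2 difference 0.63, adjusted p = 0.568), and was called higher without the rat 3 glomerulus (1.34, adjusted p = 0.0291) and at −0.08 without that of rat 1. miR-30a-5p, at 4558 and 5195 against 4000, 2870 and 4758, overlapped (log2 difference 0.34, 95% interval −0.69 to 1.37). miR-26a-5p, miR-191a-5p, miR-181a-5p and miR-125a-5p had differences between −0.47 and 0.95 and were not called. These results depended on the scaling. miR-181a-5p was called higher in each of the 3 other scalings (adjusted p between 0.000337 and 0.00297). miR-22-3p and miR-26a-5p were called higher by median of ratios (adjusted p = 0.00588 and 0.0218) and at the same total (0.00144 and 0.00775). By quantile normalization neither was called, at −0.10 and −0.44. miR-191a-5p and miR-125a-5p were called in none of the 3. Without the rat 3 glomerulus miR-26a-5p was at 1.37, miR-181a-5p at 1.43 and miR-191a-5p at 0.53. Without that of rat 1 miR-26a-5p was at −0.46, miR-181a-5p at 0.46 and miR-191a-5p at −1.07.

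Markers of the cells expected in the captures were set beside these differences. The 2 endothelial markers, the arms of miR-126a, summed to 4299 and 6290 in the glomerulus libraries and to between 1158 and 1632 in the thick ascending limb, so that limb captures also held them. The mesangial and smooth muscle markers in the table were miR-143-3p and miR-145-5p, 2 of 4. miR-143-3p was at 16324 and 10321 against 5720, 4760 and 6069 and miR-145-5p at 64.0 and 60.9 against 15, 20.5 and 25.0. Neither overlapped between segments and neither was called (log2 differences 1.23 and 1.92, adjusted p = 0.140 and 0.173). With libraries rescaled to the same total both were called, at 1.56 (adjusted p = 5.29e-05) and 2.27 (adjusted p = 0.0401). By median of ratios only miR-143-3p was called, and by quantile normalization neither. miR-143-3p was also called without the rat 3 glomerulus (1.69, adjusted p = 0.00275).

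The proximal tubule markers miR-192-5p and miR-194-5p were present in both segments. miR-192-5p was at 1414 and 761 in the glomerulus and at 2146, 4246 and 3401 in the thick ascending limb, against 22626 ± 2930 in the proximal tubule (SD, n = 3). Its log2 difference of −1.43 (SE 0.52) had an adjusted p of 0.0539. Each of the 3 other scalings called it lower in the glomerulus, and 9 of all 29 alternative fits did. The difference was −2.08 without the rat 1 glomerulus and −0.77 without that of rat 3. miR-194-5p was at 10.1 and 15.8 against 35.4, 33.8 and 30.5 and was not called (adjusted p = 0.408). Of the leukocyte markers 2 of 4 were measured, summing to between 78.7 and 117 in the glomerulus and between 25.1 and 39.0 in the thick ascending limb. miR-150-5p, at 101 and 47.3 against 19.3, 21.4 and 14.5, had an adjusted p of 0.140. Each of the 3 other scalings called it higher in the glomerulus (adjusted p between 0.00595 and 0.0124). The other marker, miR-142-5p, was at 15.3 and 31.4 against 15.3, 3.78 and 24.5, so its segments overlapped (adjusted p = 0.704). None of the 4 red cell markers is among the 188 miRNAs, and the deposited table had been filtered for low counts. The part of these other cells in the differences was not tested.

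The levels of the 21 miRNAs were also read in the other tubule segments. Between thick ascending limb and collecting duct 4 of 188 miRNAs (2.13%) differed, and 2 of the 21 were among them. Between thick ascending limb and proximal tubule 15 (7.98%) differed, again with 2 of the 21. The first count fell to 0 without the rat 2 collecting duct and rose to 26 without either glomerulus library. The second fell to 5 without the rat 1 or rat 2 thick ascending limb or the rat 2 proximal tubule, and rose to 37 and 36 without the rat 1 and rat 3 glomerulus. These comparisons share the thick ascending limb libraries with the main one.

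The 4 of the 21 that also differed between tubule segments were miR-31a-5p, miR-182, miR-141-3p and miR-92b-3p. miR-31a-5p averaged 417 ± 144 in the collecting duct (SD, n = 3) against 24.2 ± 16.0 in the thick ascending limb (n = 3), a log2 difference of −4.22, thick ascending limb minus collecting duct (adjusted p = 0.000115), and 4.80 ± 2.15 in the proximal tubule (n = 3). miR-182 averaged 9194 ± 5204 in the collecting duct (n = 3), and the same difference was −1.68 (adjusted p = 0.0137). miR-141-3p averaged 37.4 ± 39.5 in the proximal tubule (n = 3), 2.09 below the thick ascending limb on the log2 scale (adjusted p = 0.0302). miR-92b-3p averaged 63.3 ± 20.8 there (n = 3), 1.94 below (adjusted p = 0.0108) and near its glomerulus mean of 40.7. Among the higher miRNAs, miR-149-5p averaged 4.63 ± 4.10 in the collecting duct (n = 3) and 14.6 ± 8.99 in the proximal tubule (n = 3). miR-351-5p averaged 237 ± 86.7 and 294 ± 110 there (n = 3 each), close to its 182 ± 38.7 in the thick ascending limb.

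**Figure D4:**
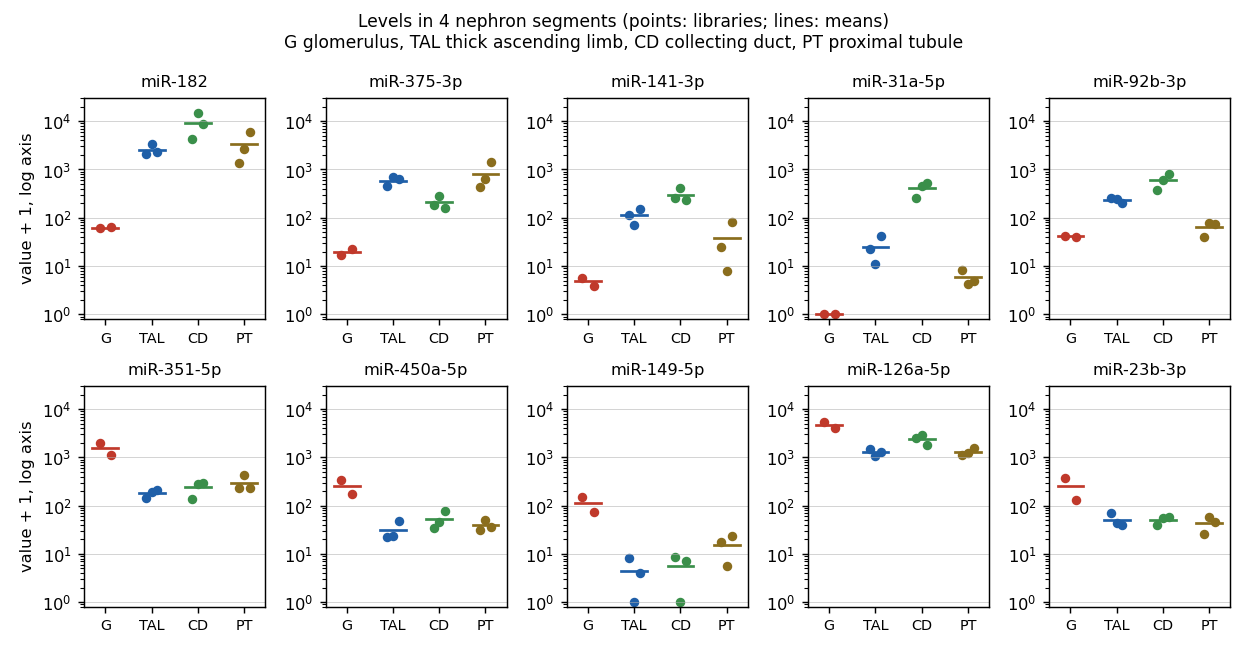
Each panel is 1 miRNA, the vertical log axis is the TMM-normalized value plus 1, points are libraries and lines segment means, for the glomerulus (G, n = 2) and 3 tubule segments (n = 3 each). In the upper row the glomerulus mean is lowest, with miR-31a-5p at 0, and in the lower row it is highest. For miR-92b-3p the proximal tubule of rat 1 lies just below both glomerulus libraries.

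The precision of all these differences is set by the glomerulus, which has 2 libraries. An exact two-sided permutation test of 5 libraries has 10 splits and gave p = 0.2 for miR-182, taken as the doubled one-sided p and the smallest that this form can give, so the calls rest on limma's variance shared across miRNAs and segments. When each miRNA had its own variance from the 5 libraries alone, 3 miRNAs passed, all lower, and 34 had an unadjusted p below 0.05. Only miR-182 and miR-375-3p were called in all 29 alternative fits.

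**Figure D5:**
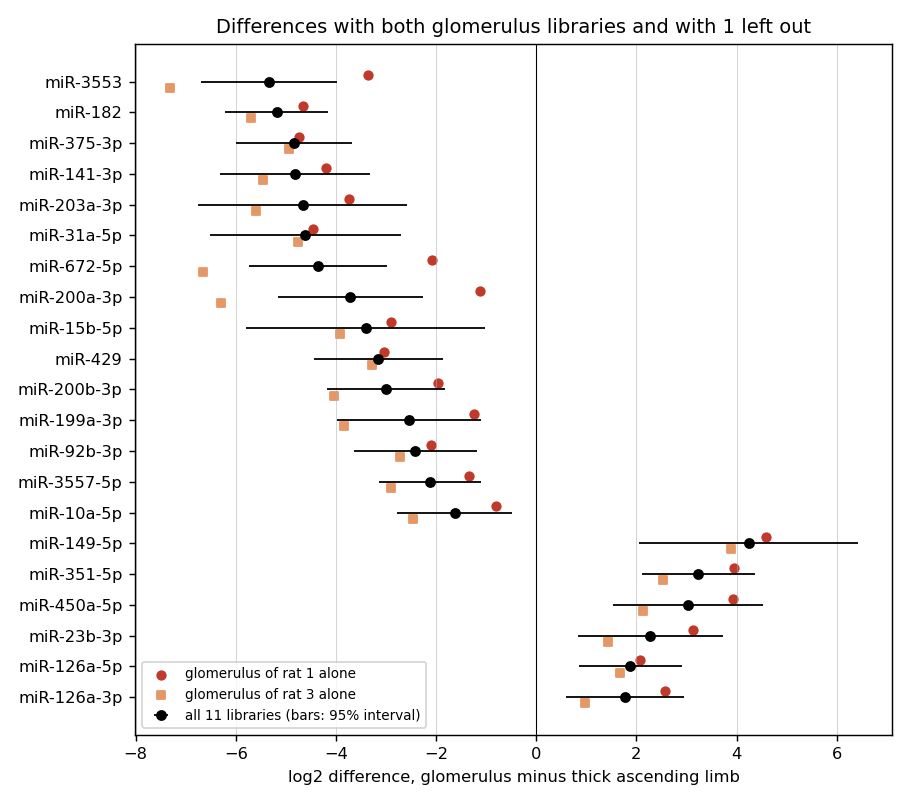
For each of the 21 miRNAs, black points and bars give the log2 difference, glomerulus minus thick ascending limb, with its 95% interval, and coloured points the difference with 1 glomerulus library alone. All points of a miRNA lie on 1 side of 0, and the widest gap is that of miR-200a-3p, −1.12 with rat 1 and −6.30 with rat 3.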

How the data were processed

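Small RNA from laser-captured nephron segments was sequenced as 50 bp reads, and each library was run on 4 flow cells. What the authors deposited is a TMM-normalized signal for each miRNA and run, as the table's name says. The name also marks the table as filtered for low counts. A miRNA without a column may therefore have been filtered out rather than absent. Partek 6.0, Bowtie2 2.2.5, Bowtie 1.0.0 and the build rn6 are listed in the submitters' processing notes; how strand and reads with several places were counted is not given in the sources used here. The values were used as deposited. Low values of a run lie mostly on multiples of 1 step, the value of 1 read, which gave the estimated reads; not all values were whole, so no count test was run. A miRNA at or under 3 reads over a group was given a bound.

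Here log2(value + 1) was averaged over the runs of a library, so n counts rats. The pseudocount understates changes of low miRNAs. limma 3.58.1 (R 4.3.3) fitted segment and rat to all 11 libraries with a variance trend, and the contrast was tested two-sided with Benjamini-Hochberg adjustment over 188 miRNAs at 0.05. The estimated variance was the same for miRNAs of like abundance. The rat is a block since segments come from the same animals, although same-rat deviations correlated weakly (median r 0.083 over 15 pairs, 10 above 0).

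Named are up to 15 called miRNAs per direction, the 10 most abundant of each segment, called members of 19 lists, and partners of called miRNAs by seed, hairpin or cluster (within 10000 bases). The members and lists were chosen with earlier results of these data known. Alternatives changed the block, libraries, trend, weights, scaling, pseudocount (0.5, 5), a mean of at least 10, and the flow cell. Single list members described outside the rule were named after their values were seen. They are members of the marker lists, miR-221-3p, miR-200b-5p, miR-203b-3p, let-7d-3p, let-7d-5p and miR-30e-3p.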

Additional observations from a re-analysis of the deposited data

How the results depend on the processing

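The count of 21 differing miRNAs (6 higher, 15 lower in the glomerulus) ranged from 15 to 44 when 1 of the 11 libraries was left out, with 4 to 24 higher and 11 to 40 lower; the extremes above the count came from leaving out a glomerulus library. Without the replicate block 25 were called (9 higher, 16 lower), 21 of the 21 among them, and with the rat as a random effect 24. With the 5 libraries of these segments alone 13 were called, 9 of them lower, and with rats 1 and 3 alone 16, of which 3 were higher. Without the variance trend 16 were called, 3 of them higher. With a weight per segment there were 11, with 1 higher. The scalings gave 45 (21 higher, 24 lower) by median of ratios, 43 (22 higher) for the same total and 34 (17 higher) by quantile normalization. 2 alternatives were added after seeing the data: each miRNA with its own variance gave 3, with 0 higher and 3 lower, and counting the 4 duplicated columns once gave 19 of 184. Single flow cells gave 16 to 22. The median difference of −0.36 ranged from −1.19 to 0.43 with 1 library left out, and changed sign without the rat 3 glomerulus (0.43) or the rat 3 thick ascending limb (0.01). Over 608 values of the 21 miRNAs in other fits, 510 kept their call, 98 lost it and 0 changed sign, with miR-10a-5p at 0 under quantile normalization.

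Thick ascending limb and collecting duct differed in 4 miRNAs: 7 without the replicate block, 1 without the trend, 13 with weights, 9 by median of ratios, and 0 to 26 with 1 library left out. Thick ascending limb and proximal tubule differed in 15: 8 without the trend, 39 with weights, 23 by quantile normalization, and 5 to 37 with 1 library left out. These fits were added after seeing the data. The cause of these changes was not tested. The rat 3 glomerulus had the fewest estimated reads of the 11 libraries, 147996, and the most miRNAs at 0, 51. The part of depth in these results was not tested.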

Other observations

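Of the 19 lists, 11 had no called member. The let-7 list, whose members restrain growth and are abundant in mature tissue, had 10 of 10 members in the table, a median log2 difference of −0.44 and a range from −1.06 to 1.63. Its upper end is let-7d-3p, the passenger arm of let-7d, at 460 and 197 in the glomerulus and at 142, 40.5 and 120 in the thick ascending limb (adjusted p = 0.0539), while let-7d-5p was at 1292 and 291 against 642, 414 and 679, a difference of 0.10 (−1.14 without the rat 1 and 1.34 without the rat 3 glomerulus). In each of the 3 other scalings let-7d-3p was called higher in the glomerulus, with adjusted p between 0.000672 and 0.0075. The signs of the let-7 5p arms depended on which glomerulus library was kept. Without that of rat 3 they lay from 0.07 to 1.34, and without that of rat 1 from −2.19 to −0.79. The miR-30 family, made in many epithelia and in podocytes, had 9 of 11 members in the table, from −1.21 for miR-30e-3p to 0.79, with a median of 0.32. The miR-99/miR-100/miR-125 list had 5 of 5 in the table, between −0.59 and −0.20; without the rat 3 glomerulus all 5 were above 0, from 0.16 to 0.68, and 2 were above 0 at the same total.

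Some miRNAs without a call were separated between the segments. miR-338-3p was at 15.9 and 21.2 in the glomerulus and at 9.62, 0 and 0 in the thick ascending limb (adjusted p = 0.140), and miR-138-5p at 31.7 and 38.2 against 5.14, 0 and 10.2 (adjusted p = 0.146). In each of the 3 other scalings miR-138-5p was called higher (adjusted p between 0.0204 and 0.0476), and miR-338-3p in none. miR-184, at 88.1 and 16.7 against 10.7, 13.3 and 4.97, had an adjusted p of 0.192. On the lower side miR-210-3p, a hypoxia miRNA, was at 4.76 and 0 against 18.4, 9.33 and 17.0 (adjusted p = 0.110), and miR-205 at 8.73 and 5.97 against 17.2, 53.3 and 21.4 (adjusted p = 0.181). miR-210-3p was called lower by median of ratios (adjusted p = 0.0228) and at the same total (0.0343), but not by quantile normalization (0.0526). Its difference was −4.16 without the rat 1 glomerulus and −1.26 without that of rat 3. These 5 were chosen after their values were seen.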
